A study of Homo sapiens with 12 samples.

Results

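The 49 genes described here are interferon-stimulated effector genes, chosen by name and matched by symbol to the Ensembl identifiers of the deposited count tables. All 49 were found, among 61906 genes in each table. They were measured by RNA sequencing in MOLM-14, an established line of human acute myeloid leukemia cells. In the knockdown experiment, cells carried a short hairpin RNA against the RNA helicase DDX5 (shDDX5, 3 libraries) or a control hairpin (shControl, 3 libraries), brought in by lentivirus under centrifugation, and were collected 96 h after infection. In the compound experiment, cells received 100 nM RX-5902 (3 libraries), a small molecule known to bind the tyrosine-phosphorylated form of DDX5, or its solvent DMSO at 0.1% (3 libraries), for 6 h. All 4 groups came from the same line, so that replicates are separate samples of 1 line. Both knockdown groups carried a lentiviral vector, while the labels name no infection for RX-5902 or DMSO cells. The labels name a single DDX5 hairpin group and a single dose and time of RX-5902.

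Interferons bind receptors at the cell surface whose kinases, JAK1, JAK2 and TYK2, phosphorylate STAT proteins. After interferon alpha, beta or lambda, a complex that holds STAT2 and IRF9 binds the interferon-stimulated response element, ISRE, in the promoters of its target genes. Interferon gamma acts mainly through another element, GAS. IRF1, IRF3 and IRF7 can bind ISRE-like sequences as well, and NF-kappaB adds to the transcription of some members such as CXCL10. The products of these genes block the entry, replication and release of viruses, tag proteins with ISG15, degrade or sense foreign RNA and DNA, and attract lymphocytes.

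The promoters of 7 members are shown because these genes carry the patterns described below, and because the letters show which of them hold an ISRE. The sequences are RefSeq promoter windows on GRCh38.p14, 250 bases before to 50 bases after the start site used there, written 5′ to 3′ on the strand of the gene. That start site can lie inside the span of the deposited gene, as for ISG15 and ISG20. Capitals mark each match to the ISRE letters (GAAA, any 2 bases, GAAA) on either strand and, in CXCL10 alone, the match to the kappaB letters (GGGA, any 2 bases, TTCC), also searched on both strands; a longer run of capitals holds overlapping ISRE matches. ISG15 (chr1:1013247-1013546, plus strand) rose with the DDX5 hairpin and was not called with RX-5902, and IFIT3 (chr10:89327747-89328046, plus strand) rose with both. BST2 (chr19:17405581-17405880, minus strand) and TRIM14 (chr9:98119173-98119472, minus strand) rose with the hairpin and fell with RX-5902. CXCL10 (chr4:76023448-76023747, minus strand) and ISG20 (chr15:88638766-88639065, plus strand) rose with RX-5902 and were not called with the hairpin. HERC5 (chr4:88456869-88457168, plus strand) had no read in any of the 12 libraries.
ISG15: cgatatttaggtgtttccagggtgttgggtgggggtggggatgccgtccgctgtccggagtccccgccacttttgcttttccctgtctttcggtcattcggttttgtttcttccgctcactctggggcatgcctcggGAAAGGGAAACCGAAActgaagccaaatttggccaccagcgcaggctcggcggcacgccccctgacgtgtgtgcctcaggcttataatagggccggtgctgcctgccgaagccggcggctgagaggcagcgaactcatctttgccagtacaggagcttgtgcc
IFIT3: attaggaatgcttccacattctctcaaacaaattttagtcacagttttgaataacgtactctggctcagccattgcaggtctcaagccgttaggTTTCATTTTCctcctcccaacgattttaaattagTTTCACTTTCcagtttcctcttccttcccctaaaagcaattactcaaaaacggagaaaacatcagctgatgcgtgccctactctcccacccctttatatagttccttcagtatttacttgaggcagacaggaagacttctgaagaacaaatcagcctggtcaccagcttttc
BST2: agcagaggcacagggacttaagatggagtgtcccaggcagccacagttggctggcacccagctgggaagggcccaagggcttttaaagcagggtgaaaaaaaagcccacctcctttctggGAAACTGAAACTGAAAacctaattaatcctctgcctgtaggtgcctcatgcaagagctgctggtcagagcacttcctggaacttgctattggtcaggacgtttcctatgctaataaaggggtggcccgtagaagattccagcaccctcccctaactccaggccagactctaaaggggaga
TRIM14: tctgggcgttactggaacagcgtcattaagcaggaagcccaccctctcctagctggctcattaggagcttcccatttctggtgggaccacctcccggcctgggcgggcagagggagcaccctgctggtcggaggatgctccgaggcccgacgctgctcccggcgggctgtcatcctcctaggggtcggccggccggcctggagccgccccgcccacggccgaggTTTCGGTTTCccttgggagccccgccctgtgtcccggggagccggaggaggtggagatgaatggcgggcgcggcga
CXCL10: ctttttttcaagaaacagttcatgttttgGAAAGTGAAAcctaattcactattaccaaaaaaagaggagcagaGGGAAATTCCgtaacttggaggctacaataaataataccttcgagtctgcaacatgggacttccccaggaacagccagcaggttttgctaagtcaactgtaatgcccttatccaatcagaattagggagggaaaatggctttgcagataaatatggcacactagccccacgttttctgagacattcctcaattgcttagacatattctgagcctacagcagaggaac
ISG20: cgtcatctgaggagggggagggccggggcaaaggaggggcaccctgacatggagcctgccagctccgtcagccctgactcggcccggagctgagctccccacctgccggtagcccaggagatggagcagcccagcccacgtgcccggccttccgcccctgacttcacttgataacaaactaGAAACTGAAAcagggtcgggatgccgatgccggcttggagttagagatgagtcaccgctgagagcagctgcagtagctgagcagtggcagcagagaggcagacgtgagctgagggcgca
HERC5: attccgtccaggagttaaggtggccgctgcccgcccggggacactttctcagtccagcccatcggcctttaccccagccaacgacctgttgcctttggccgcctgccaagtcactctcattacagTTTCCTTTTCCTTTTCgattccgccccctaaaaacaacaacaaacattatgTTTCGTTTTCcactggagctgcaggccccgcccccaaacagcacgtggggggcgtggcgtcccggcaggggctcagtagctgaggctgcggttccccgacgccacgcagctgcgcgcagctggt

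A promoter entry was found for 41 of the 49 members, and 26 of these 41 windows (63.4%) held an ISRE match, against 1255 of all 35116 windows in the table (3.57%). The GAS letters (TTC, any 3 bases, GAA), which read the same on both strands, were found in 9 of the 41 members' windows (22%) and in 7.66% of all windows. The kappaB letters were found in CXCL10 alone among the members, and in 1.61% of all windows. An ISRE match was present for 18 of 30 members that rose with the DDX5 hairpin and for 4 of 5 that were tested there and not called. In the compound experiment it was present for 10 of 18 members that rose and for 5 of 6 that fell. HERC5 held 3 matches, the first 125 bases before its start, and gave no reads. IFIT2, IFITM2, IRF7, GBP2, MX2, PARP10, TRIM22 and USP18 had no entry in the table.

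DDX5, the targeted gene (ENSG00000108654.16, chr17:64498254-64508199, minus strand), stood at 159, 164 and 161 CPM (counts scaled to the size of the library) in the shDDX5 libraries, against 755, 718 and 730 CPM in the shControl libraries (log2 fold change -2.19 ± 0.08, SE). It stood at 1108, 1067 and 1023 CPM with RX-5902, against 854, 868 and 863 CPM with DMSO (0.31 ± 0.04). The knockdown libraries held 17603589 to 19674098 counts and the compound libraries 20264250 to 20367575. shDDX5 replicate 1 stood apart: its chi-square per gene against the other libraries of its group was 46.3 and 46.4, while every other pair within a group lay between 1.68 and 5.93. Mitochondrial transcripts took 7.71 to 10.3% of counts in shDDX5 libraries, against 6.17 to 7.75% in shControl libraries, with the highest share in that replicate. The 8 myeloid markers (CD33, SPI1, FLT3, MPO, LYZ, HOXA9, MEIS1, CEBPA) had reads in every group. With the hairpin 4 were called higher, LYZ by 1.92 on the log2 scale, and 3 lower (MEIS1 -2.73, HOXA9 -1.62, FLT3 -0.51). Their sum, carried by LYZ, was 13295 to 14728 CPM in shDDX5 cells and 4131 to 4472 CPM in shControl cells, and 1218 to 1237 CPM with RX-5902 and 1402 to 1451 CPM with DMSO. A list of 7 T and NK cell genes summed to 125 to 185 CPM in shDDX5 cells and 92.1 to 99.3 CPM in shControl cells, and to 74.2 to 79.3 CPM with RX-5902 and 35.8 to 38.2 CPM with DMSO. In that list NKG7, GNLY and TRAC carried the reads. With the hairpin NKG7 was called higher (1.08) and CD3D (-2.54) and GNLY (-0.38) lower, and CD3E and KLRD1 had 1 read each over all 12 libraries. A list of 7 plasmacytoid dendritic cell genes summed to 20.7 to 31.1 CPM in shDDX5 cells and 49.7 to 52.5 CPM in shControl cells, and to 114.6 to 120.2 CPM with RX-5902 and 85.4 to 91.9 CPM with DMSO, with TCF4 and SPIB carrying the reads. IL3RA is listed at 0 under both its X and its Y copy, and reads that map to both may not have been counted. The lists for B cells, fibroblasts and epithelial cells stayed at or under 7.44 CPM in every library, and MS4A1, COL3A1, DCN and LUM had no reads. The part of the shifts in T and NK, plasmacytoid and myeloid genes in the results below was not tested.

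With the DDX5 hairpin, most of the measured interferon-stimulated genes rose. Of the 49 members, 43 passed the filter on low counts, and 36 of these were higher in shDDX5 than in shControl cells at an adjusted p under 0.05 (edgeR's quasi-likelihood test, Benjamini-Hochberg adjusted over all genes tested), 1 was lower and 6 were not called. Over all 14463 genes tested, 28.3% were called higher and 28.2% lower (56.5% called). 20 members rose at least 2-fold, against 10.8% of all genes, and no member fell that far, against 10.3%. EPSTI1, counted among the 36 and the 20, and RSAD2, counted among the 36, passed the filter only through the shDDX5 libraries. Their entry into the test thus already depended on a rise. Every shDDX5 library lay above every shControl library for 35 of the 43 members, against 32.2% of all genes, and below for 1, against 34.0%. The median log2 fold change was 0.92 over the 43 members and -0.00 over all genes. Without shDDX5 replicate 1, 36 members were higher and 1 lower, where 35.7% of all genes were called higher and 35.8% lower. Since these are bulk libraries, more RNA per cell and more cells that express a gene cannot be told apart.

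**Figure D1:**
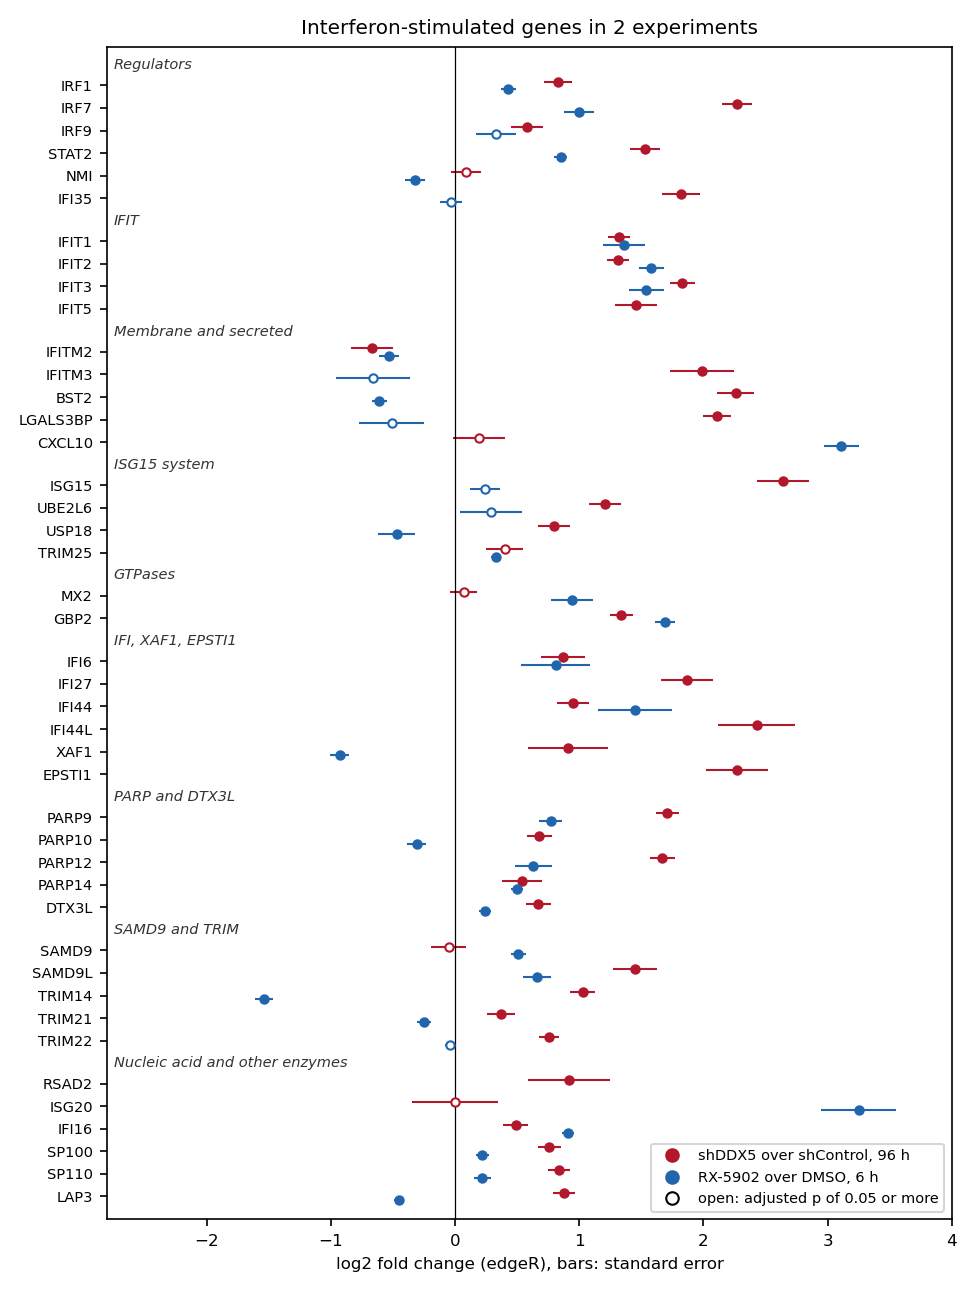
Log2 fold change (x axis, edgeR) of each member tested, by role (y axis), for shDDX5 over shControl (red) and RX-5902 over DMSO (blue), with bars for the standard error and open points where the adjusted p was 0.05 or more. Red points lie right of 0 for most members, up to 2.64 for ISG15, while blue points lie on both sides, from -1.54 for TRIM14 to 3.25 for ISG20.

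Among the regulators, IRF7, the factor that drives interferon alpha genes, rose most (ENSG00000185507.21, chr11:612553-615983, minus strand). It stood at 44.9, 35.5 and 36.5 CPM in shDDX5 libraries, against 8.76, 7.79 and 7.69 CPM in shControl libraries. All shDDX5 values were higher, and the fold was 4.82 (log2 2.27 ± 0.12, adjusted p = 6.24e-06). STAT2, which binds the ISRE together with IRF9, had 182, 241 and 232 CPM in shDDX5 libraries, against 75.1, 76.5 and 75.4 CPM in shControl libraries. The groups lay far apart, with replicate 1 the lowest of the shDDX5 libraries (log2 1.53 ± 0.12, adjusted p = 2.52e-05). IFI35, a leucine zipper protein that pairs with NMI, had 84.7, 60.4 and 64.0 CPM in shDDX5 libraries, against 17.8, 21.0 and 20.3 CPM in shControl libraries (log2 1.82 ± 0.15). Its partner NMI had 59.4, 47.6 and 44.3 CPM in shDDX5 libraries, against 47.9, 46.8 and 47.8 CPM in shControl libraries, so the partners did not share the change: the groups overlapped for NMI, with an adjusted p of 0.557. IRF1 rose by 0.83 ± 0.11 and IRF9 by 0.58 ± 0.13 on the log2 scale.

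The 4 IFIT genes, which lie together on chromosome 10 and encode proteins that bind foreign RNA, all rose, by 1.31 to 1.83 on the log2 scale. IFIT3 had 68.5, 68.1 and 64.4 CPM in shDDX5 libraries, against 17.5, 17.7 and 21.1 CPM in shControl libraries. IFIT1, which binds RNA whose cap lacks ribose methylation, had 25.8, 23.8 and 22.6 CPM in shDDX5 libraries, against 9.66, 9.51 and 9.77 CPM in shControl libraries. IFIT2 had 50.9, 55.8 and 55.1 CPM in shDDX5 libraries, against 23.3, 22.0 and 19.98 CPM in shControl libraries. No library of either group crossed into the other for these 3 genes, and shDDX5 replicate 1 lay near the other shDDX5 libraries. The adjusted p was 6.24e-06 for IFIT3, 1.48e-05 for IFIT1 and 1.66e-05 for IFIT2. IFIT5 rose 2.74-fold, on 81 to 85 reads in shDDX5 libraries, against 30 to 40 reads in shControl libraries.

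Of the membrane and secreted products, BST2 (tetherin), which holds budding virus at the cell surface, stood at 420.2 CPM in shDDX5 replicate 1 and at 295 and 312 CPM in the other shDDX5 libraries, against 65.1, 75.1 and 74.2 CPM in shControl libraries. LGALS3BP, a secreted glycoprotein that binds galectins, had 33.7, 29.7 and 29.6 CPM in shDDX5 libraries, against 6.62, 8.13 and 6.71 CPM in shControl libraries. Both genes rose more than 4-fold, BST2 by 2.26 ± 0.15 and LGALS3BP by 2.11 ± 0.11 on the log2 scale. IFITM3 and IFITM2, which stop viruses at the endosome, went apart: IFITM3 had 8.18, 4.81 and 6.79 CPM in shDDX5 libraries, against 2.14, 1.53 and 1.28 CPM in shControl libraries. IFITM2 had 28.2, 17.4 and 19.0 CPM in shDDX5 libraries, against 31.7, 35.5 and 35.5 CPM in shControl libraries. IFITM2 was the single member that fell (log2 -0.67 ± 0.17, adjusted p = 0.0111), and shDDX5 replicate 1 lay nearest to the shControl libraries. The IFITM genes are near-identical copies, so the split of reads between them is uncertain. CXCL10, the chemokine that attracts T cells through CXCR3, had 2.10, 1.70 and 1.72 CPM in shDDX5 libraries, against 1.94, 1.48 and 1.43 CPM in shControl libraries, and was not called (adjusted p = 0.483).

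ISG15, the ubiquitin-like protein that interferon attaches to many proteins (ENSG00000187608.10, chr1:1001138-1014540, plus strand), gave the largest fold change of the members tested at the stated settings. It had 106, 59.9 and 69.0 CPM in shDDX5 libraries, against 11.8, 12.6 and 13.1 CPM in shControl libraries. The lowest shDDX5 value was more than 4 times the highest shControl value, and the log2 fold change was 2.64 ± 0.21 (adjusted p = 2.98e-05). UBE2L6, the enzyme that conjugates ISG15, rose by 1.21 ± 0.13, and USP18, which removes ISG15 and dampens the interferon receptor, by 0.80 ± 0.13. TRIM25, a ligase that acts on RIG-I, had 95.4, 141 and 142 CPM in shDDX5 libraries, against 95.7, 93.8 and 97.9 CPM in shControl libraries. Replicate 1 lay among the shControl values and the other shDDX5 libraries above them (log2 0.40 ± 0.15, adjusted p = 0.0517); without replicate 1 the change was 0.56 with an adjusted p of 9.27e-13. HERC5, the ligase that attaches ISG15, had no read in 12 libraries, and HERC6 had 2 reads each in shDDX5 replicates 2 and 3 and none elsewhere.

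**Figure D2:**
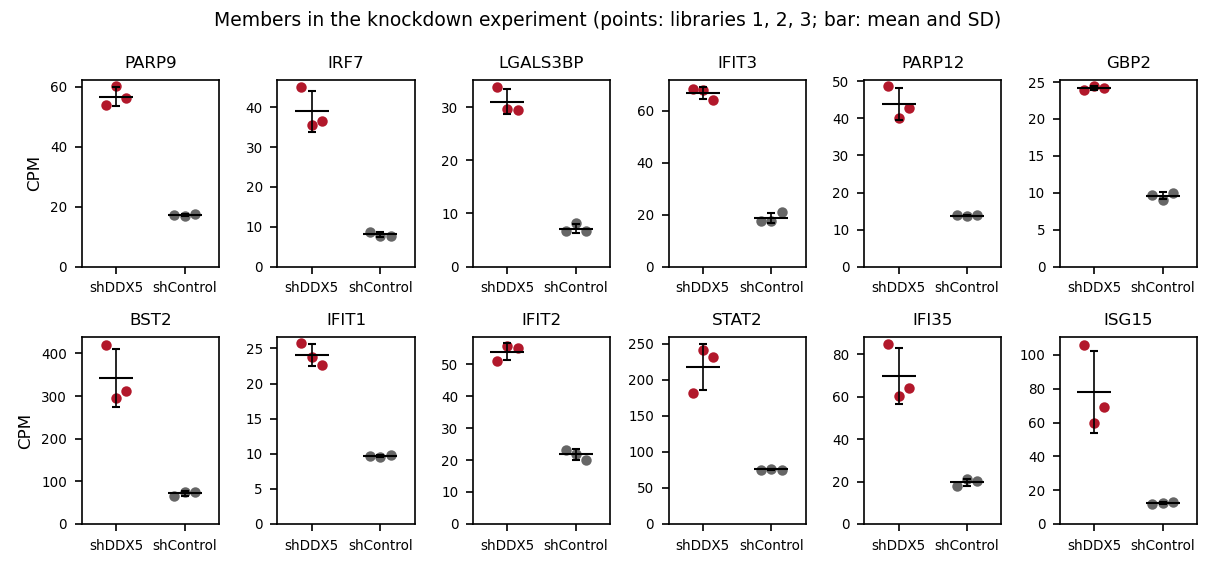
CPM (y axis, linear from 0) in the 3 shDDX5 libraries (red, left) and the 3 shControl libraries (grey, right) of the 12 members with the smallest p and at least 5 CPM, with the mean and SD. In every panel all shDDX5 points lie above all shControl points, and replicate 1 (the leftmost red point) is the highest for ISG15, BST2, IFI35, IRF7, PARP12, LGALS3BP, IFIT1 and IFIT3 and the lowest for STAT2, PARP9, GBP2 and IFIT2.

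The GTPases differed. GBP2, a guanylate-binding protein that attacks the membranes around microbes, had 24.0, 24.5 and 24.2 CPM in shDDX5 libraries, against 9.66, 9.07 and 10.0 CPM in shControl libraries (log2 1.34 ± 0.09, adjusted p = 1.1e-05). MX2, a dynamin-like protein that restricts retroviruses, had 9.49, 9.28 and 9.82 CPM in shDDX5 libraries, against 8.21, 9.41 and 9.57 CPM in shControl libraries, and the groups overlapped (log2 0.07 ± 0.11, adjusted p = 0.587). MX1 and GBP1 were not tested, since MX1 had 1, 2 and 2 reads in shDDX5 libraries, against 5, 6 and 3 reads in shControl libraries, and GBP1 3, 2 and 0 reads, against none. All 6 genes of the group with IFI6, IFI27, IFI44, IFI44L, XAF1 and EPSTI1 rose, by 0.87 to 2.43. IFI44L had 4.77, 9.34 and 7.62 CPM in shDDX5 libraries, against 1.64, 0.887 and 1.48 CPM in shControl libraries. XAF1, which counters the apoptosis inhibitor XIAP, had 15.5, 41.0 and 40.3 CPM in shDDX5 libraries, against 17.3, 16.4 and 17.7 CPM in shControl libraries. For XAF1 shDDX5 replicate 1 lay below the shControl libraries, and the call (log2 0.91 ± 0.32, adjusted p = 0.0382) ended without any one of the shControl libraries (0.0959 to 0.11) or without shDDX5 replicate 2 or 3 (0.114 each). The call held without shDDX5 replicate 1, and the log2 fold change ran from 0.71 to 1.24 over the alternatives. XAF1 also shares 2535 of its exon bases with PRAL on the other strand, whose reads may be counted with it.

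All 5 genes of the ADP-ribosylation group rose. PARP9, which works in a complex with the ligase DTX3L, had 53.8, 60.0 and 56.1 CPM in shDDX5 libraries, against 17.2, 17.0 and 17.7 CPM in shControl libraries, the smallest p among the members (log2 1.71 ± 0.09, adjusted p = 4.71e-06). PARP12, a mono-ADP-ribosyltransferase, had 48.6, 40.2 and 42.8 CPM in shDDX5 libraries, against 13.9, 13.7 and 13.8 CPM in shControl libraries. DTX3L, whose gene lies head to head with PARP9 and shares 139 exon bases with it on the other strand, rose less, by 0.67 ± 0.10, and PARP10 by 0.68 ± 0.10. PARP14 had 79.3, 122 and 118 CPM in shDDX5 libraries, against 73.9, 72.2 and 73.6 CPM in shControl libraries, with replicate 1 close to the shControl values. Its call (log2 0.54 ± 0.16, adjusted p = 0.0183) ended without any one shControl library (0.0621 to 0.0653) or without shDDX5 replicate 2 (0.0584) or 3 (0.0576). The call of PARP14 held without shDDX5 replicate 1, and its log2 fold change ran from 0.43 to 0.71 over the alternatives.

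The neighbours SAMD9 and SAMD9L, which restrain cell growth and block poxviruses, parted. SAMD9L rose by 1.45 ± 0.18, while SAMD9 had 22.9, 34.1 and 31.5 CPM in shDDX5 libraries, against 31.6, 29.1 and 30.8 CPM in shControl libraries, with overlapping groups (log2 -0.05 ± 0.14, adjusted p = 0.807). TRIM14, an adaptor of the mitochondrial antiviral protein MAVS, had 123, 146 and 147 CPM in shDDX5 libraries, against 72.5, 66.1 and 64.2 CPM in shControl libraries (log2 1.03 ± 0.10). TRIM22 rose by 0.76 ± 0.08. TRIM21, the antibody receptor of the cytosol, had 47.3, 38.1 and 39.9 CPM in shDDX5 libraries, against 30.2, 34.4 and 32.4 CPM in shControl libraries. Its call (log2 0.37 ± 0.11, adjusted p = 0.0188) ended without shControl replicate 1 (0.0935) or 3 (0.0739), and under a correction for gene length (0.18, adjusted p = 0.0663).

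Of the genes for nucleic acid and other enzymes, LAP3, a leucine aminopeptidase, had 292, 245 and 249.9 CPM in shDDX5 libraries, against 146, 141 and 142 CPM in shControl libraries (log2 0.88 ± 0.09). IFI16, a sensor of DNA, and the nuclear body proteins SP100 and SP110 rose by 0.49 to 0.84. ISG20, an exonuclease that degrades RNA, had 1.02, 0.396 and 0.940 CPM in shDDX5 libraries, against 0.747, 0.789 and 0.839 CPM in shControl libraries, so that the groups overlapped (log2 -0.00 ± 0.35). RSAD2 (viperin), which makes a chain-ending nucleotide, had 22, 17 and 12 reads in shDDX5 libraries, against 10, 10 and 10 reads in shControl libraries. The call for RSAD2 (adjusted p = 0.0412) ended without any one shControl library or without shDDX5 replicate 1 or 2 (0.0901 to 0.115) and with DESeq2 (0.1). Its neighbour CMPK2 had 4, 0 and 2 reads, against none, and was not tested.

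The shift of shDDX5 replicate 1 differed between members. Its log2 ratio to the mean of replicates 2 and 3 ran from -1.36 for XAF1 to 0.71 for ISG15 over the 43 members tested, above 0.5 for 4 and below -0.5 for 6. Across these 43 genes, which share the libraries and so are not independent replicates, the ratio had a Spearman correlation of -0.68 with exon length, against -0.39 across all 14463 genes tested. The shortest members, ISG15 and IFI6, were higher in replicate 1, while the longest were mixed: TRIM25 lay at -0.57 and IFI44L at -0.77, but MX2 at -0.01, TRIM22 at 0.06 and IRF1 at 0.27. Length also went with the groups. The slope of log2 CPM per doubling of gene length was 0.0525 to 0.0558 in shControl libraries. It was -0.111, -0.0232 and -0.0295 in shDDX5 libraries. In the compound experiment it was 0.00479 to 0.0222 with RX-5902 and -0.0183 to -0.0106 with DMSO. Leaving out replicate 1 thus does not remove it.

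The interferons themselves were at or near 0. Of 22 interferon genes, none passed the filter on low counts and 13 had no read in any library. IFNB1, the gene of interferon beta, had 8, 4 and 7 reads in shDDX5 libraries, against 3, 1 and 1 reads in shControl libraries, and none with RX-5902 or DMSO. It was called in the fit with no filter on low counts (log2 1.99, adjusted p = 0.0268) and could not be tested otherwise. IFNL1 had 3, 1 and 1 reads in shDDX5 libraries, against 1, 1 and 0 reads in shControl libraries. IFNA2, IFNA5, IFNA8, IFNA13, IFNK, IFNL2 and IFNL3 had at most 2 reads in the sum of any group.

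Elsewhere in the pathway, the counts stand beside 28.3% of all genes called higher and 28.2% lower with the hairpin. Of 10 receptor, JAK and STAT genes tested, 6 rose and 1 fell, among them JAK2 by 0.83 and STAT3 by 0.66, while TYK2 fell by 0.52 on the log2 scale. Of 4 other IRF genes, IRF8 and IRF5 rose by 0.90 and 0.52. Of 10 negative regulators, 4 rose and 1 fell; SOCS1 and SOCS3, which block JAK kinases, rose by 1.47 and 1.25, and the phosphatase PTPN6 by 0.42, while PTPN11 fell by 0.69. Of 17 sensors and OAS-pathway genes, 10 rose and 2 fell. OAS2 and OAS1, enzymes that respond to double-stranded RNA, rose by 1.87 and 1.92, OASL by 1.19, and EIF2AK2 (PKR), which halts translation on double-stranded RNA, by 1.41. Of 8 targets of interferon gamma, 5 rose and none fell, among them the peptide transporter TAP1 by 1.86, GBP5 by 1.82, WARS1 by 0.43 and FCGR1A by 0.45, the last not called without shControl replicate 1 (0.0651) or 2 (0.0558). Of 14 further interferon-stimulated genes, 9 rose and 2 fell; LY6E rose by 1.70, PML by 0.85 and TRIM38 by 0.52, and NT5C3A fell by 0.94.

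With RX-5902, the members moved in both directions. Of the 49 members, 38 were tested, and 22 were higher and 9 lower in RX-5902 than in DMSO cells, while 7 were not called. Over all 13941 genes tested, 32.2% were called higher and 31.9% lower (64.1% called), so the count of lower members lay near the background and that of higher members above it. 8 members rose at least 2-fold, against 5.16% of all genes, and 1 fell at least 2-fold, against 3.57%. ISG20 and IFI44 (mean of 0.42 CPM with DMSO for IFI44), counted among the 22 and the 8, passed the filter on low counts only through the RX-5902 libraries. The DMSO libraries alone would not have passed IFI6 either (mean of 0.64 CPM with DMSO), which is counted among the 22. The entry of ISG20, IFI44 and IFI6 into the test thus already depended on a rise. Every RX-5902 library lay above every DMSO library for 23 members, against 34.0% of all genes, and below for 10, against 33.4%. The median log2 fold change was 0.33 over the members tested and 0.01 over all genes. Besides the 6 members tested in neither experiment, IFIT5, IFI27, IFI44L, EPSTI1 and RSAD2 were too low to test here. IFI44L had 1 read in all over the 6 libraries and EPSTI1 had 1 read in each DMSO library and none with RX-5902.

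The largest rises were those of ISG20 and CXCL10. ISG20 (ENSG00000172183.16, chr15:88635670-88656483, plus strand) had 2.17, 2.68 and 2.04 CPM with RX-5902, against 0.202, 0.253 and 0.251 CPM with DMSO. These values rest on 45, 56 and 42 reads with RX-5902 and 4, 5 and 5 reads with DMSO, and the fold was 9.55 (log2 3.25 ± 0.30, adjusted p = 1.59e-12). CXCL10 (ENSG00000169245.6, chr4:76021118-76023497, minus strand) had 12.5, 10.1 and 12.0 CPM with RX-5902, against 1.47, 1.32 and 1.203 CPM with DMSO (fold 8.65, log2 3.11 ± 0.14, adjusted p = 1.17e-21). CXCL10 is the member whose window held a kappaB match beside an ISRE match. No library of RX-5902 came near the DMSO level for either gene.

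Of the regulators, STAT2 had 97.2, 95.9 and 94.4 CPM with RX-5902, against 53.6, 51.5 and 54.2 CPM with DMSO (log2 0.85 ± 0.05, adjusted p = 1.43e-19). IRF7 rose by 1.00 ± 0.12 and IRF1 by 0.43 ± 0.06, NMI fell by 0.32 on the log2 scale, and IRF9 and IFI35 were not called. IFIT2 had 14.9, 16.4 and 13.7 CPM with RX-5902, against 4.30, 5.26 and 5.46 CPM with DMSO (log2 1.58 ± 0.10). IFIT3 had 7.04, 6.42 and 6.40 CPM with RX-5902, against 1.87, 2.68 and 2.26 CPM with DMSO (log2 1.54 ± 0.14), and IFIT1 rose by 1.36 ± 0.17. For these IFIT genes every RX-5902 library lay above every DMSO library. GBP2 had 29.2, 24.3 and 25.5 CPM with RX-5902, against 7.53, 8.55 and 8.37 CPM with DMSO (log2 1.69 ± 0.08, adjusted p = 1.7e-20). IFI16 had 69.8, 67.7 and 64.9 CPM with RX-5902, against 35.9, 33.4 and 38.1 CPM with DMSO (log2 0.91 ± 0.05). MX2 and IFI44 rose by 0.94 and 1.45, and SAMD9, SAMD9L, PARP9, PARP12, PARP14, DTX3L, TRIM25, SP100 and SP110 by 0.22 to 0.77. IFI6 rose by 0.81 (adjusted p = 0.012), a call that ended without DMSO replicate 2 (0.0898) and with DESeq2 (0.0781), and that of SP110 ended without RX-5902 replicate 1 (0.073).

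TRIM14 fell most. It had 11.8, 12.1 and 12.95 CPM with RX-5902, against 37.3, 35.6 and 34.4 CPM with DMSO, a fall of 2.91-fold (log2 -1.54 ± 0.07) with the smallest p of the members (adjusted p = 4.24e-22). XAF1 had 12.7, 11.7 and 10.6 CPM with RX-5902, against 22.9, 21.9 and 22.2 CPM with DMSO (log2 -0.93 ± 0.08). LAP3 had 99.3, 98.6 and 96.5 CPM with RX-5902, against 134, 132 and 136 CPM with DMSO (log2 -0.45 ± 0.04). In all 3 genes the groups did not overlap and the libraries of a group lay close together. BST2 fell by 0.61, IFITM2 by 0.53 and USP18 by 0.47 on the log2 scale, and NMI, PARP10 and TRIM21 by 0.25 to 0.32. TRIM14 and NANS share 422 exon bases on opposite strands, so reads of either may be counted in both where strand was not used. ISG15, UBE2L6, IFI35, IRF9, IFITM3, LGALS3BP and TRIM22 were not called. Of these, ISG15 (log2 0.24 ± 0.12, adjusted p = 0.0707) was called without DMSO replicate 2 (0.31, 0.0483) or RX-5902 replicate 1 (0.34, 0.0161), and IFITM3 (log2 -0.66 ± 0.30, adjusted p = 0.0558) without DMSO replicate 1 or 2 or RX-5902 replicate 3 (-0.90 to -0.79, 0.0208 to 0.0359).

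**Figure D3:**
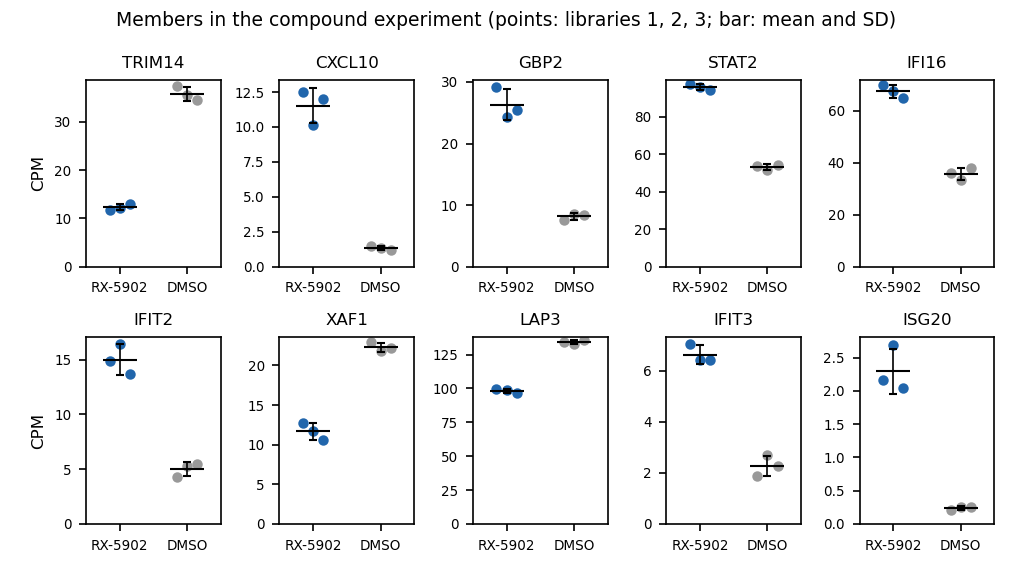
CPM (y axis, linear from 0) in the 3 RX-5902 libraries (blue, left) and the 3 DMSO libraries (grey, right) of the 10 called members with the smallest p, with the mean and SD. TRIM14, XAF1 and LAP3 are lower with RX-5902 and the other panels higher, and no panel has overlapping groups.

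In the rest of the pathway, the counts stand beside 32.2% of all genes called higher and 31.9% lower with RX-5902. Of 10 receptor, JAK and STAT genes tested with RX-5902, 9 rose and 1 fell, with rises of 0.77 for IFNGR2, 0.46 for TYK2, 0.44 for JAK1 and 1.12 for IL10RB. Of 4 other IRF genes, IRF2 rose by 0.91, IRF8 fell by 1.31 and IRF5 by 0.42 on the log2 scale. SOCS3 and SOCS1 rose by 1.41 and 0.90, PIAS4 by 0.27 and PTPN1 by 0.22, among 5 negative regulators of 10 that rose and none that fell. Of 15 sensors and OAS-pathway genes, 8 rose and 3 fell, with rises of 1.39 for the RNA sensor IFIH1 (MDA5), 1.58 for OASL and 0.53 for EIF2AK2. Of 8 targets of interferon gamma, TAP1 rose by 0.52 and 4 fell; WARS1 and PSMB8 fell by 0.45 each and PSMB10 by 0.22. Of 13 further interferon-stimulated genes, 7 rose and 4 fell; SLFN5 rose by 1.29, RNF213 by 0.56 and TRIM38 by 0.56, and LY6E fell by 0.80. No interferon gene had a read with RX-5902, and 2 single reads, of IFNL1 and IFNA5, were found with DMSO.

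The experiments shared no libraries, and the difference between their fold changes was tested on all 12 libraries. Since the hairpin was read at 96 h after infection and RX-5902 at 6 h, the way DDX5 was targeted and the time cannot be told apart in it. Of 43 members tested, the change was higher with the hairpin than with RX-5902 for 24, lower for 6, and not called for 13, where 24.1% of all 15386 genes tested were called higher and 28.6% lower (52.7% called). 13 members differed at least 2-fold toward the hairpin and 2 at least 2-fold toward RX-5902, against 9.39% and 13.5% of all genes. Without shDDX5 replicate 1, 29 members were called higher and 7 lower, against 28.4% and 32.0% of all genes. Over the 38 members tested in each experiment alone as well, 22 were called higher and 6 lower, against 26.2% and 31.1% of 13233 such genes, and 11 and 2 at least 2-fold, against 9.12% and 13.6%. The median difference was 0.66 (log2) over the members and -0.05 over all genes. 17 of these 38 members rose in both experiments, against 10.3% of such genes: IRF1, IRF7, STAT2, IFIT1, IFIT2, IFIT3, GBP2, IFI6, IFI44, PARP9, PARP12, PARP14, DTX3L, SAMD9L, IFI16, SP100 and SP110. Of these, IFI6 and IFI44 entered the compound test only through the RX-5902 libraries. For 11 of these 17 the difference was called, where 52.7% of all genes tested were called. The share among all genes that rose in both was not computed, so this count is not a result about the members. IRF7, STAT2, PARP9 and PARP12 rose more with the hairpin, by 0.66 to 1.25, and IFI16 rose more with RX-5902, by 0.44. For IFIT1, IFIT2, IFIT3, IFI6, IFI44 and PARP14 the difference was not called, from -0.52 ± 0.27 for IFI44 to 0.27 ± 0.17 for IFIT3 (SE). The estimate was least precise for IFI6 (0.04 ± 0.52), where a difference in either direction remains possible. GBP2 differed by -0.37 (adjusted p = 0.0225), a call that ended without shControl replicate 1 (0.0533) or 3 (0.0738), shDDX5 replicate 3 (0.0502), DMSO replicate 1 (0.0807) or RX-5902 replicate 1 (0.07).

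7 of the 38 members rose with the hairpin and fell with RX-5902, against 7.05% of genes tested in both experiments: BST2, USP18, XAF1, PARP10, TRIM14, TRIM21 and LAP3. All 933 genes with such opposite calls were also called for the difference, which thus adds no support to them. TRIM14 differed by 2.55 ± 0.11 (adjusted p = 6.69e-10), BST2 by 2.86 ± 0.18 (1.37e-08) and LAP3 by 1.31 ± 0.10 (1.69e-07). BST2 had 35.8, 40.1 and 41.7 CPM with RX-5902, against 57.1, 63.3 and 59.5 CPM with DMSO, so that its groups were separate in each experiment. Another 7 rose with the hairpin and were not called with RX-5902 (IRF9, IFI35, IFITM3, LGALS3BP, ISG15, UBE2L6 and TRIM22), and for 6 of them, all but IRF9, the difference was called. The share of all genes that rose with the hairpin and were not called with RX-5902 was not computed, so the count of 7 is not a result about the members. Of all genes tested, 52.7% were called for the difference, and the share among genes with such calls was not computed. ISG15 differed by 2.38 ± 0.30, LGALS3BP by 2.61 ± 0.27 and IFI35 by 1.84 ± 0.19. In the other direction, CXCL10 (-2.94 ± 0.25, adjusted p = 3.56e-07), ISG20 (-3.27 ± 0.46), MX2 (-0.89 ± 0.20; -0.58, adjusted p = 0.0563, with a length correction and replicate block) and SAMD9 (-0.57 ± 0.15) changed more with RX-5902, while TRIM25, called in the compound experiment alone, was not called for the difference (0.04 ± 0.15). Without shDDX5 replicate 1 the differences of TRIM25 (0.22, adjusted p = 0.00193), PARP14 (0.20, adjusted p = 0.0106), IFITM2 (-0.39, adjusted p = 0.00521) and NMI (0.25, adjusted p = 0.0276) were called. IFITM2 fell in both, and NMI fell with RX-5902 and was not called with the hairpin, with no difference called for either gene on all libraries; that of NMI was called in 9 of 21 alternatives, DESeq2 among them (0.41, adjusted p = 0.0406). Of the 5 members too low to test with RX-5902, which passed the filter on 12 libraries only through the knockdown groups, RSAD2 and EPSTI1 are among those counted as higher for the difference, and no size is given for them. EPSTI1 had 28, 31 and 33 reads in shDDX5 libraries, against 7, 8 and 6 reads in shControl libraries, and the compound libraries held 3 reads of it in all.

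**Figure D4:**
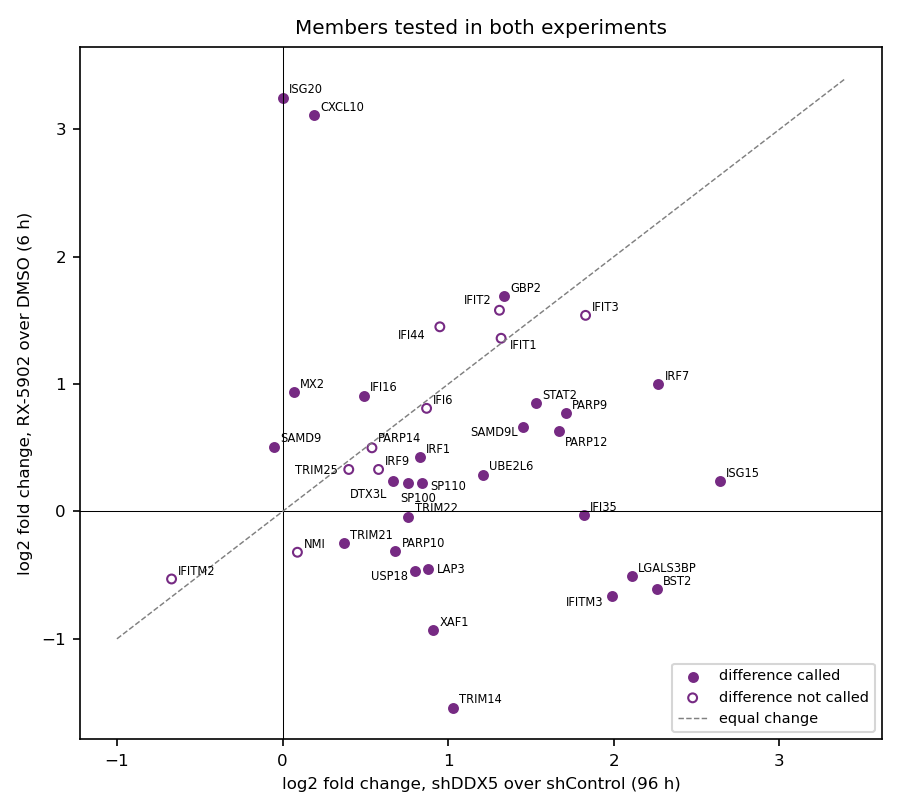
Log2 fold change of RX-5902 over DMSO (y axis) against that of shDDX5 over shControl (x axis) for the 38 members tested in both experiments, filled where the difference between the experiments was called, with a dashed line of equal change. IFIT1, IFIT2 and IFIT3 lie near the line, ISG20 and CXCL10 at the top near 0 on the x axis, and BST2, LGALS3BP, IFITM3 and TRIM14 below 0 on the y axis.

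The control groups of the experiments did not start from the same level. For 40 members with a mean of at least 1 CPM in shControl or DMSO cells, every shControl library lay above every DMSO library for 28 and below for 6, against 32.8% and 43.4% of 12980 genes at that level. 16 members were at least 2-fold higher in shControl than in DMSO cells, against 10.4% of genes, and none at least 2-fold lower, against 4.32%. IFI6 averaged 20.4 ± 0.973 CPM in shControl cells and 0.639 ± 0.204 CPM in DMSO cells (SD, n = 3 each). IFIT3 averaged 18.8 ± 2.01 CPM in shControl cells and 2.27 ± 0.406 CPM in DMSO cells, and LGALS3BP 7.15 ± 0.848 CPM in shControl cells and 1.19 ± 0.208 CPM in DMSO cells. IRF1, NMI, USP18, XAF1, DTX3L and SP100 were lower in every shControl library than in every DMSO library. CPM were scaled within each experiment, so the 2 control groups have no common scale. Separations at ratios near 1, such as 1.04 for TRIM25, 1.07 for LAP3 and 0.93 for SP100, may depend on that scaling. Infection, time in culture and experiment cannot be told apart here, and no test was made. For IFIT3, the RX-5902 libraries (6.40 to 7.04 CPM) thus stayed below the shControl libraries (17.5 to 21.1 CPM), while the difference between its fold changes in the experiments was 0.27 ± 0.17 and not called.

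**Figure D5:**
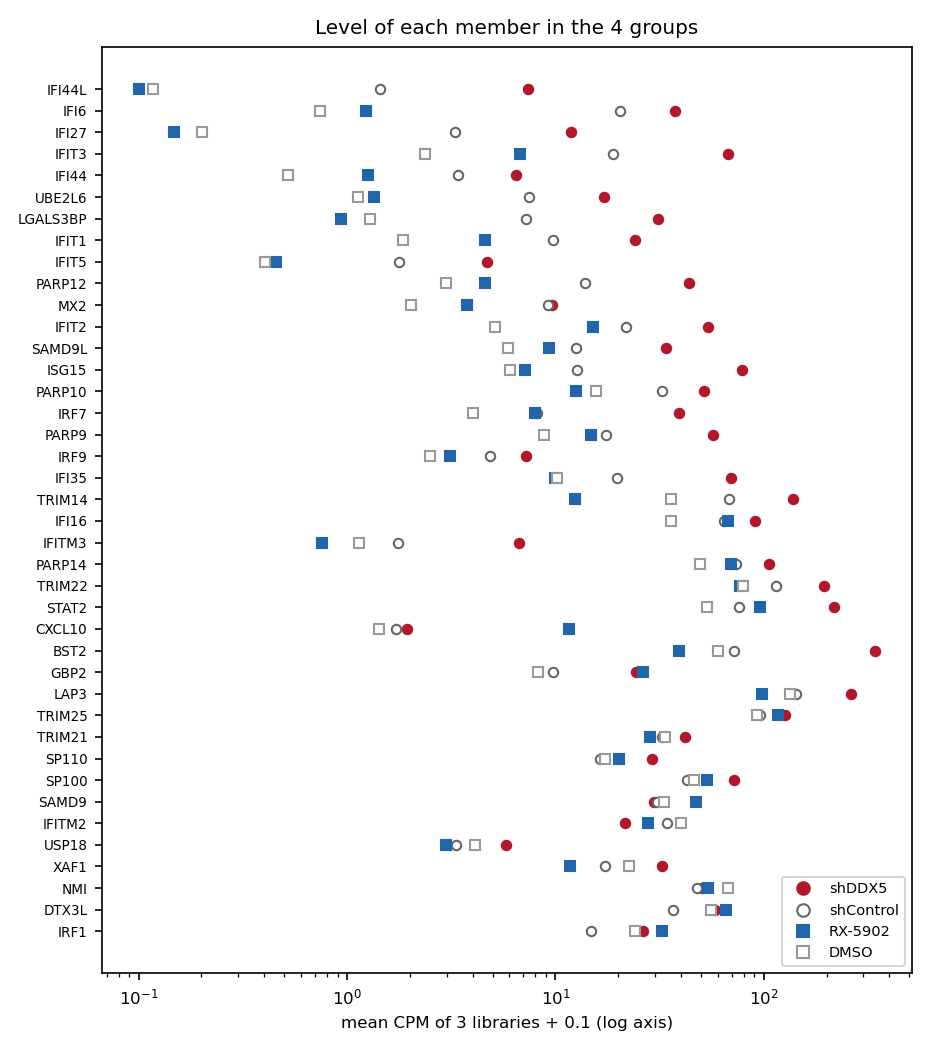
Mean CPM of 3 libraries plus 0.1 (x axis, log scale) of the 40 members with at least 1 CPM in shControl or DMSO cells, sorted by the ratio of shControl to DMSO, for shDDX5 (red circles), shControl (open circles), RX-5902 (blue squares) and DMSO (open squares). For IFI44L, IFI6, IFI27 and IFIT3, at the top, both knockdown groups lie to the right of both compound groups, while for CXCL10 the RX-5902 square lies alone to the right. CPM were scaled within each experiment.

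Per kilobase of exon, BST2 was the most abundant member in all 4 groups, at 311 CPM per kb in shDDX5, 64.9 in shControl, 35.6 in RX-5902 and 54.5 in DMSO cells. In shDDX5 cells ISG15 (90.2 CPM per kb) and LAP3 (69.4) came next, while ISG15 was the sixth in shControl cells (14.5). LAP3 was the second in shControl (37.8), RX-5902 (26.0) and DMSO cells (35.5), and in the compound experiment IFITM2, NMI and TRIM21 followed it in both groups. In shControl cells IFI6 (21.8) and IFITM2 (21.3) stood side by side less than 1 CPM per kb apart.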

How the data were processed

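RNA was extracted from MOLM-14 cells and sequenced, per the labels' protocols, and the authors deposited 2 tables of raw read counts per gene, 1 for each experiment. Per the submitters' processing notes, the build was GRCh38.p13 and the tools included featureCounts (Subread 2.0.3), the aligner STAR 2.7.9a, Trim Galore 0.6.7, DESeq2 1.46.0 and Picard 2.8.0; the strand setting and annotation release are not given in the sources used here. From the deposited counts, CPM were computed with TMM scaling within each experiment. Genes passing filterByExpr were tested with edgeR 4.0.16 (R 4.3.3, quasi-likelihood F test with robust estimation), with Benjamini-Hochberg adjustment over all genes tested, a threshold of 0.05, and SE taken from the F statistic. A fit used the 6 libraries of 1 experiment, and the difference between experiments used all 12 with 4 group means. The script was tested on simulated counts. The alternatives were other scalings and filters, DESeq2 1.42.0, a fold of 1.2 as the null, a length correction, a replicate block, 1 fit of all libraries, leaving out each library and, added after seeing the data, no robust estimation. 1 gene wrapped over several lines in the tables was rejoined.

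The members and gene lists were chosen with earlier results of these data known. Genes named in full were the 12 with the smallest p for the hairpin, the falls and those nearest 0, the 10 with the smallest p for RX-5902, and the 3 for the difference; up to 4 were named per pathway list, and others after their values were seen. The titles call the samples biological replicates and do not say whether they came from separate cultures, so p-values measure the spread between these samples. Promoters came from RefSeq (GRCh38.p14), and gene coordinates from the deposited tables. Some genes of the pathway lists are counted but not reported here by name.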

Additional observations from a re-analysis of the deposited data

Results flagged for a closer look

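7 of the 38 members tested in both experiments were called higher with the hairpin and lower with RX-5902, against 7.05% of the 13233 genes tested in both. In edgeR's test on 12 libraries, the difference between the fold changes was called for these 7. It was also called for all 933 genes with such opposite calls, so it adds nothing to the calls that picked the 7. The log2 fold change of shDDX5 over shControl exceeded that of RX-5902 over DMSO by 2.86 for BST2 (adjusted p = 1.37e-08), 2.55 for TRIM14 (adjusted p = 6.69e-10), 1.82 for XAF1 (adjusted p = 0.000523), 1.31 for LAP3 (adjusted p = 1.69e-07), 1.26 for USP18 (adjusted p = 5.22e-05), 0.97 for PARP10 (adjusted p = 1.06e-05) and 0.60 for TRIM21 (adjusted p = 0.00229). Every library moved with its group for all of these but XAF1 in shDDX5 replicate 1. The way of treatment and the time cannot be told apart in these differences.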

How the results depend on the processing

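No named result reversed under any alternative. The number of members called lower with RX-5902 was 5 against a fold of 1.2, 7 in 1 fit of all 12 libraries, 9 at the stated settings and 9 or 10 under the other alternatives. Against a fold of 1.2, 5195 of all genes were called (2621 lower), against 8936 (4451 lower) at the stated settings. In 1 fit of all 12 libraries, 3054 of 15386 genes were called lower. Leaving out 1 library gave 32 to 36 members higher and 1 lower with the hairpin. Over all genes, 3239 to 5318 were then called higher and 3381 to 5334 lower, of 14811 to 14916 tested. With RX-5902 it gave 22 members higher and 9 to 10 lower, against 4115 to 4388 and 4213 to 4419 of 14224 to 14319 genes. For the difference it gave 28 to 36 members called (23 to 29 higher, 5 to 7 lower), against 7457 to 9543 of 15719 to 15870 genes. Same-numbered libraries of 2 groups correlated at -0.0741 to 0.0345 in their deviations from the group mean. With 3 libraries a group, these values cannot settle whether the same number marks a shared culture or batch. With a replicate block, 35 members were higher and 1 lower with the hairpin, against 3720 and 3806 of all 14463 genes. With RX-5902, 22 members were then higher and 10 lower, against 4362 and 4320 of 13941 genes. For the difference 30 members were called, against 7620 of 15386 genes. The block ended the calls of RSAD2 with the hairpin (adjusted p = 0.0663) and GBP2 for the difference (adjusted p = 0.0632). It made those of IFITM3 with RX-5902 (adjusted p = 0.0471) and IFI27 for the difference (adjusted p = 0.0395). Members at a few reads, such as MX1, GBP1, HERC6, CMPK2 and IFITM1, could not be resolved at this depth.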
